A study of Mus musculus with 12 samples.

Results

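The proteasome subunit genes were taken as every gene in the count table whose symbol is Psm, a letter from a to g and a number. This rule found 48 of the 24421 genes of the table, and 45 of the 48 passed the filter on low values that left 11378 genes for testing. RNA was sequenced from mouse embryonic stem (mES) cells of strain B6 (C57BL/6J in the study's methods), grown in 2i with LIF, in which a dTAG degron was knocked into Brg1. Brg1, also named Smarca4, encodes the ATPase BRG1 of the mSWI/SNF chromatin remodelers. In the study's methods, colonies grown from single cells were picked. The libraries may all describe 1 clone, but the number of clones sequenced was not stated. All 6 groups carried this knock-in, and there was no group without the tag. Each group had 2 libraries. The Control group (0 nM) received no dTAG13, and the others received 0.3, 1, 3, 10 or 100 nM of it over 24 h. dTAG13 joins the tagged protein to a ubiquitin ligase, so that BRG1 is handed to the proteasome. The question was whether the genes of that proteasome changed in transcript level as the load of degraded BRG1 rose with dose. The loss of BRG1 itself rises with the same doses, so load and loss cannot be told apart in this design. BRG1 protein was not measured in these libraries, and its transcript is no check of a protein that is lost after translation. The study's western blots of the knock-in cells, also after 24 h, showed less BRG1 protein as the dTAG13 dose rose.

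The proteasome degrades proteins marked with ubiquitin. Its core particle is a barrel of stacked rings, in which alpha subunits (Psma genes) form the outer gates and beta subunits (Psmb genes) the inner rings, where Psmb5, Psmb6 and Psmb7 carry the proteolytic sites. The regulatory particle has a base, whose ATPases (Psmc genes) unfold the substrate, and a lid, which holds the deubiquitinase Psmd14. Other caps can take the place of the regulatory particle, namely the PA28 alpha and beta subunits Psme1 and Psme2, which assemble together, the nuclear PA28 gamma Psme3 and PA200 Psme4. Interferon gamma is known to induce Psme1, Psme2 and the beta subunits Psmb8, Psmb9 and Psmb10, which replace Psmb5, Psmb6 and Psmb7 in the immunoproteasome. The transcription factor NRF1 (Nfe2l1) is known to raise the constitutive subunit genes together when the proteasome is inhibited.

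The upstream sequences of 3 genes that fell at 100 nM and of 1 activator gene that was not called are shown first, because the results below turn on these genes. Each sequence runs 5′ to 3′ on the strand of the gene, from 150 bases before the annotated start to 25 bases after it, and was taken from RefSeq on GRCm38.p6. Capitals mark matches to an interferon-stimulated response element (ISRE, GAAANNGAAA), a GC box (GGGCGG), an E box (CACGTG) or a CCAAT box (CCAAT), on either strand.
Psme1, chr14:55578344-55578518, plus strand: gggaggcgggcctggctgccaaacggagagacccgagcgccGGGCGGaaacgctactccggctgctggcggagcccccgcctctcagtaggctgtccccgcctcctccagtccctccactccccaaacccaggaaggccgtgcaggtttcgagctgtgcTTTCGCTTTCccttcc
Psme2, chr14:55591077-55591251, minus strand: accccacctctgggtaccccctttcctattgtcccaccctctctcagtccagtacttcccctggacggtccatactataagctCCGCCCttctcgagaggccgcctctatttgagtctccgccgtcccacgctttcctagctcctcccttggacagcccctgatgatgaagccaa
Psmb10, chr8:105938368-105938542, minus strand: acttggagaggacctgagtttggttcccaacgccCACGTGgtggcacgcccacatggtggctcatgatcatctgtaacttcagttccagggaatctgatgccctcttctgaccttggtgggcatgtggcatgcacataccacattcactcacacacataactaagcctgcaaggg
Psme3, chr11:101316063-101316237, plus strand: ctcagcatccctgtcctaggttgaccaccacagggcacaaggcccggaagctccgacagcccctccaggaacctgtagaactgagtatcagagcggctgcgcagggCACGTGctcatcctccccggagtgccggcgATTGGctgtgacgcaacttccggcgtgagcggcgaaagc
The ISRE letters stood in the Psme1 sequence from base 10 to base 19 after the start, on the minus strand, and in no other of the 4 sequences. Psmb10 and Psme3 each held an E box. Psme2 has another listed start in RefSeq, and the one shown is the first listed. The start of Psme3 in RefSeq differed from that in the gene annotation used for counting.

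Promoter windows of 300 bases, from 250 before to 50 after the start, were listed for 40 of the 48 members. The ISRE letters were in the windows of 5 members, namely Psmb3, Psmd4, Psmd9, Psme1 and Psmg4, against 3.44% of all 32851 windows. The letters of the antioxidant response element, TGACNNNGC, to which NRF1 and NRF2 bind, were in those of 6 members, namely Psmb5, Psmb6, Psmc6, Psmd12, Psmd9 and Psme4, against 12.4% of all windows. GC boxes were in the windows of 23 members (35.7% of all windows), CCAAT boxes in those of 14 members (37.4%) and E boxes in those of 4 members (7.15%). A member was counted if any of its windows matched, while the percentages are of single windows, so the units differ. Both strands were searched, no match in the 4 sequences shown overlaps another, and a match describes the letters only.

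Total counts ran from 4663484 to 6375582 per library. The 48 members held between 0.51% and 0.577% of them. Rn45s, the 45S ribosomal RNA precursor, held between 10.5% and 19.4%. The highest share of the members was in replicate 1 of 3 nM, the library with the lowest share of Rn45s. All 8 mES cell markers averaged at least 1 RPKM, and none of the 8 fibroblast or 7 primitive endoderm markers did. RPKM is the number of read pairs scaled by the exon length of the gene and by the effective library size. The summed marker levels moved with dose: mES cell markers stood at 2060 to 2081 RPKM at 0 nM and at 1829 to 1872 RPKM at 100 nM, and fibroblast markers at 1.38 to 1.48 and 2.32 to 3.07 RPKM. Primitive endoderm markers stood at 1.84 to 2.29 and 2.53 to 2.88 RPKM, and trophoblast markers, of which 4 of 7 averaged at least 1 RPKM, at 13.4 to 16.4 and 22.8 to 23.1 RPKM. These are sums of genes that went both ways, and Pdgfra counts in both the fibroblast and the primitive endoderm sum. Pdgfra rose at 100 nM (log2 fold change 2.28, adjusted p = 0.00068, in an edgeR fit of all genes with at least 1 count). No other fibroblast or primitive endoderm marker was called in that fit, and the primitive endoderm marker Sox7 had a log2 change of -1.24 (adjusted p = 0.096, edgeR). Of the mES cell markers at 100 nM, Tfcp2l1, Dppa5a, Pou5f1 and Esrrb fell (adjusted p up to 0.0433, edgeR). Their log2 fold changes were -0.64, -0.48, -0.17 and -0.17. Nanog and Klf4 rose by 0.52 and 0.28 (adjusted p = 1.79e-08 and 0.00163, edgeR), and Sox2 and Zfp42 were not called. The study, which also asked for a change over 1.5-fold, described Pou5f1 (Oct4) as unchanged. Of the trophoblast markers, Cdx2 rose by 3.1 on the log2 scale (adjusted p = 2.4e-06, edgeR). Tfap2c rose by 0.69 (adjusted p = 0.0109, edgeR) and Eomes by 0.33 (adjusted p = 0.0465, edgeR). Gata3 had a log2 change of -1.23 and was not called (adjusted p = 0.0919, edgeR). The part of these shifts in the results below was not tested. In bulk RNA, fewer cells of a type and less RNA per cell cannot be told apart. The study describes its expression data as coming from independent experiments, while the labels name no separate cultures, and p-values measure the spread between the 2 libraries of a group.

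At 100 nM, Psme1, Psme2 and Psmb10 fell, as did Psma8, Psmd5, Psmb2 and Psmd8. The other 2 activators, Psme3 and Psme4, and most of the constitutive core, base and lid stayed near their 0 nM levels. With an adjusted p under 0.05 (edgeR's quasi-likelihood test over all 11378 genes, Benjamini-Hochberg adjustment), 7 of the 45 tested members were lower at 100 nM, which is 15.6%. Of all tested genes, 13.3% were lower at this threshold, so the share of members is near the background. No member was higher, against 10.1% of all genes, and 2 members had a positive change at an unadjusted p under 0.05. The likelihood ratio test called 6 members and DESeq2 called 4, all lower. When a change of at least 1.5-fold was also asked for, 4 members (8.89%) were lower, namely Psmb10, Psme2, Psme1 and Psma8, against 6.83% of all genes. The median log2 fold change of the 45 members at 100 nM was -0.036, and that of all tested genes was 0.

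**Figure D1:**
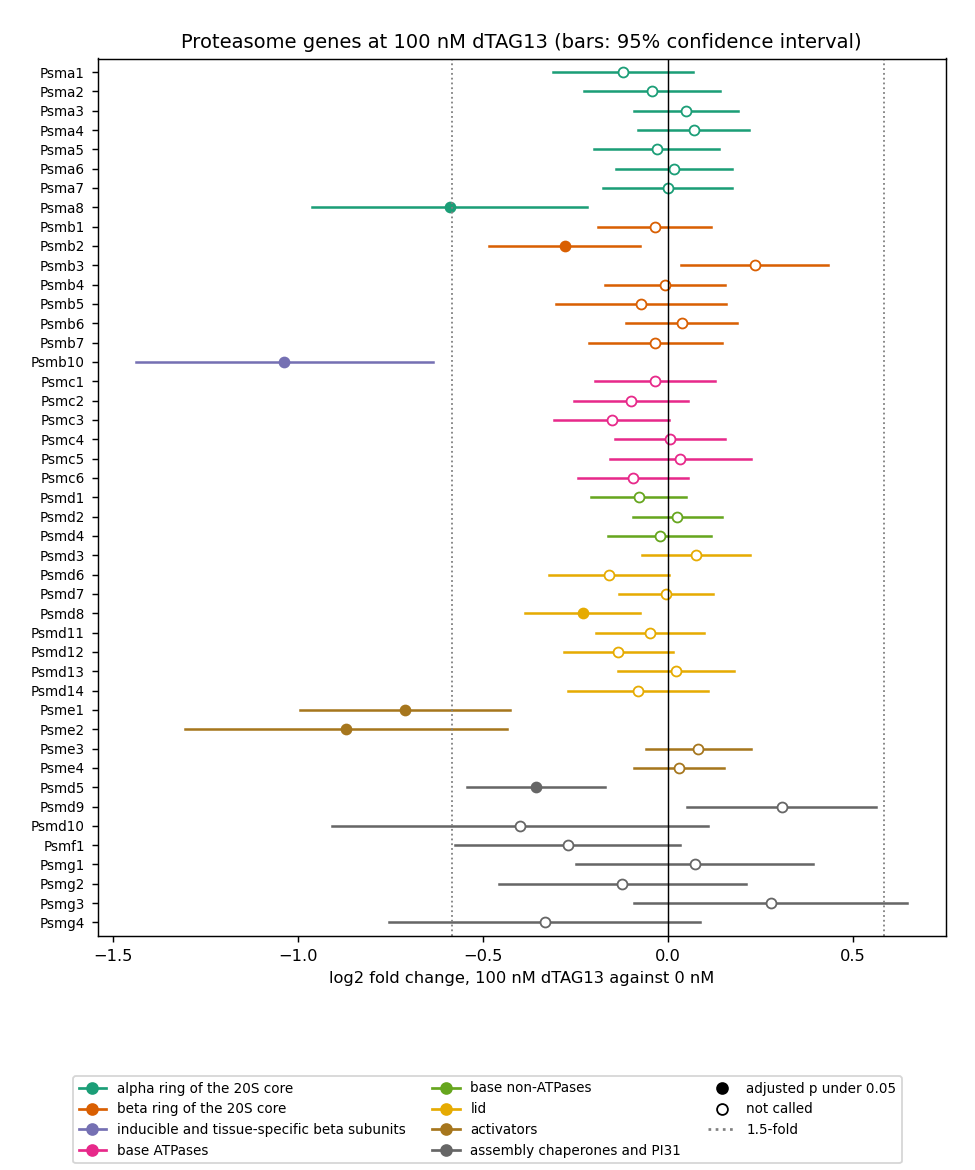
Log2 fold change of the 45 tested members at 100 nM dTAG13 against 0 nM, by role, with 95% confidence intervals from the edgeR fit. Filled circles mark an adjusted p under 0.05, open circles mark members that were not called, and dotted lines mark 1.5-fold. The 7 called members all lie left of 0, and 4 of them lie beyond 1.5-fold.

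Among the activators, Psme1 was the member called at the lowest dose. Psme1 encodes the PA28 alpha subunit and lies on chromosome 14 from 55578494 to 55581527 (mm10). Its level was 56.1 and 68.5 RPKM at 0 nM, 56.5 and 62.7 at 0.3 nM, 61.3 and 44.1 at 1 nM, 46.1 and 35.5 at 3 nM. The values were 42.8 and 41.7 with 10 nM and 39.7 and 36.5 with 100 nM. All libraries of 3, 10 and 100 nM lay below both 0 nM libraries. Its mean in RPKM was 62.3 ± 8.76 without dTAG13 and 38.1 ± 2.25 at the top dose (SD, n = 2 each). For Psme1 the log2 fold change at 100 nM was -0.71 (SE, the standard error, 0.137, adjusted p = 0.000333, edgeR), a 1.64-fold fall. It was -0.62 at 3 nM (SE 0.139, adjusted p = 0.00441, edgeR) and -0.56 at 10 nM (SE 0.136, adjusted p = 0.00459, edgeR). At 1 nM, where the 2 libraries differed most, it was -0.24 (SE 0.132, adjusted p = 0.446, edgeR), and at 0.3 nM it was -0.06 (SE 0.131, adjusted p = 0.966, edgeR). Without replicate 2 of 0 nM, the library with the highest level, Psme1 was not called at 3 nM (log2 fold change -0.47, adjusted p = 0.114, edgeR) or at 10 nM (log2 fold change -0.42, adjusted p = 0.114, edgeR). It was also not called at 3 nM without replicate 2 of 3 nM (log2 fold change -0.44, adjusted p = 0.106, edgeR). At 100 nM it was called under all 21 alternatives.

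Psme2, which encodes the PA28 beta subunit, lies 5913 bases from Psme1 on the opposite strand, from 55587440 to 55591101. Its level was 22.3 and 19.0 RPKM at 0 nM, 15.7 and 15.4 at 0.3 nM, 14.1 and 24.4 at 1 nM, 12.7 and 16.4 at 3 nM. The values were 14.2 and 13.8 with 10 nM and 10.2 and 12.4 with 100 nM. Replicate 2 of 1 nM was the highest of the 12 libraries, and the 100 nM libraries were the lowest. The log2 fold change of Psme2 at 100 nM was -0.87 (SE 0.211, adjusted p = 0.0032, edgeR), a 1.83-fold fall. At 3 nM it was -0.50 (adjusted p = 0.152, edgeR), and at 10 nM it was -0.56 (adjusted p = 0.061, edgeR), neither of which was called. Without replicate 1 of 100 nM the adjusted p at 100 nM was 0.065 in the edgeR fit, with a log2 fold change of -0.73. Between 60 and 143 read pairs per library lay behind these values. A near copy of this gene, Psme2b, had 0 to 5 counts per library. Pairs that mapped to more than 1 place were not counted, so the level of Psme2 itself is uncertain.

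The other 2 activators did not follow. Psme3, the nuclear PA28 gamma, had 70.2 and 69.6 RPKM at 0 nM and 72.8 and 75.3 RPKM at 100 nM, which is a log2 change of 0.08 with a 95% confidence interval from -0.06 to 0.22 (adjusted p = 0.43, edgeR). Psme4, the PA200 cap, had 46.3 and 46.4 RPKM at 0 nM and 47.9 and 46.7 RPKM at 100 nM, which is a log2 change of 0.03 with an interval from -0.09 to 0.15 (adjusted p = 0.77, edgeR). Both intervals lie inside 1.5-fold in either direction. Psme1 per 100 RPKM of Psme3 stood at 79.8 and 98.3 in the 0 nM libraries and at 54.5 and 48.5 in the 100 nM libraries, and Psme2 per 100 RPKM of Psme3 at 31.8 and 27.3 and at 13.97 and 16.4. These ratios are taken within a library, so they do not depend on the scaling between libraries, and they did not overlap between the 2 groups. Of all tested genes, 31.2% had both 100 nM libraries below both 0 nM libraries in RPKM, and no such share was computed for ratios. Psme1 and Psme2 were already called lower, so the ratios are no separate check. Psme2 per 100 RPKM of Psme1 stood at 39.8 and 27.7 at 0 nM and at 25.6 and 33.9 at 100 nM. The groups overlapped in this ratio.

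**Figure D2:**
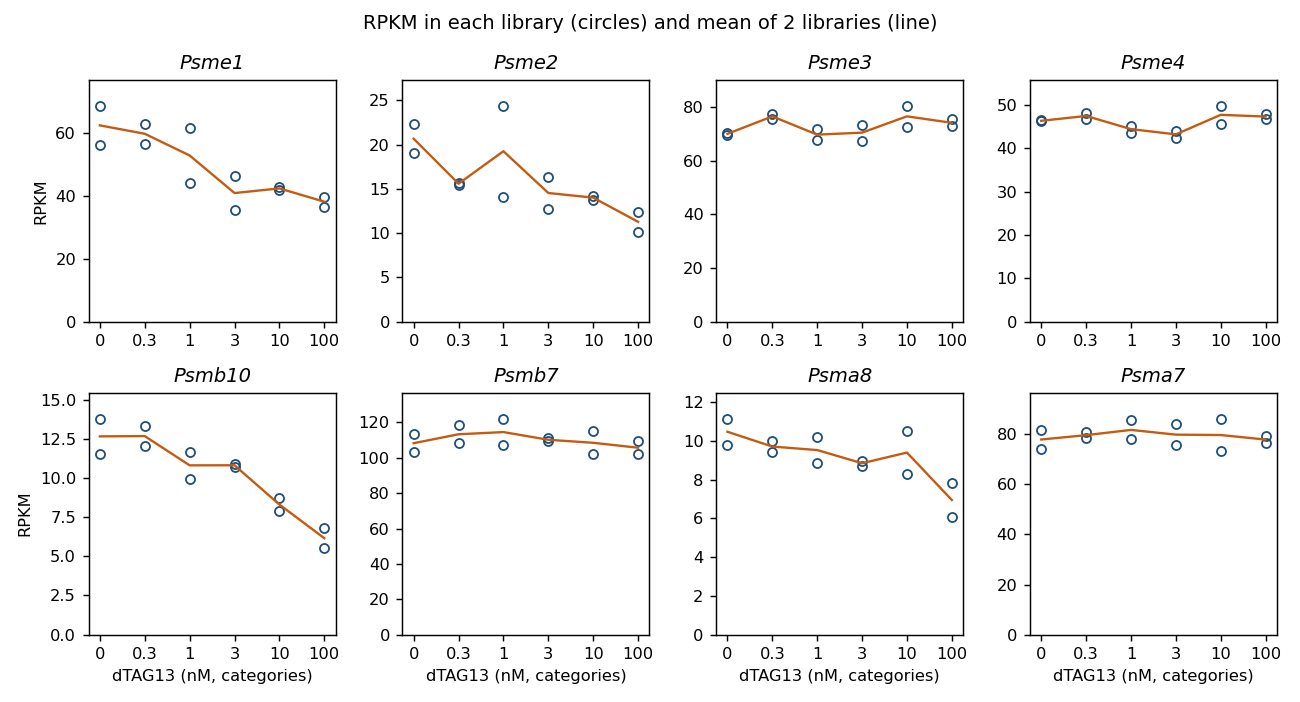
RPKM of the 4 activator genes, of Psmb10 and Psma8, and of their constitutive paralogs Psmb7 and Psma7, by dTAG13 dose (nM, as categories). Circles are single libraries and lines join the means of 2 libraries. Psme1, Psme2, Psmb10 and Psma8 had their lowest means at 100 nM, while Psme3, Psme4, Psmb7 and Psma7 stayed close to their 0 nM levels.

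Of the 4 inducible or tissue-specific beta subunits, only Psmb10 was expressed above the filter. Psmb10 encodes the subunit that takes the place of Psmb7 in the immunoproteasome and lies on chromosome 8 from 105935728 to 105938392. Its level was 13.8 and 11.5 RPKM at 0 nM, 13.3 and 12.02 at 0.3 nM, 11.7 and 9.96 at 1 nM, 10.7 and 10.9 at 3 nM. The values were 8.72 and 7.89 with 10 nM and 6.78 and 5.53 with 100 nM. The 4 libraries of 10 and 100 nM were below all others. The log2 fold change of Psmb10 was -1.04 at 100 nM (SE 0.194, adjusted p = 0.000237, edgeR), a 2.05-fold fall and the largest among the 45 members in this fit. At 10 nM it was -0.60 (SE 0.185, adjusted p = 0.0236, edgeR). At 1 and 3 nM it was -0.23 and -0.22 (adjusted p = 0.647 and 0.522, edgeR). Psmb10 was called at 100 nM under all 21 alternatives. At 10 nM it was not called by DESeq2, without normalization factors, without replicate 1 of 0 nM (adjusted p = 0.195, edgeR) or without either 10 nM library (adjusted p = 0.0536 and 0.137, edgeR). Between 43 and 102 read pairs per library lay behind these values.

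Psmb7, the constitutive counterpart, had 113 and 103 RPKM at 0 nM and 109 and 102 RPKM at 100 nM (log2 fold change -0.03, 95% confidence interval -0.21 to 0.14, adjusted p = 0.826, edgeR). Psmb10 per 100 RPKM of Psmb7 therefore stood at 12.2 and 11.2 in the 0 nM libraries, at 7.58 and 7.74 at 10 nM and at 6.2 and 5.42 at 100 nM. The groups did not overlap in this ratio, for which no share over all genes was computed. Psmb10 was already called lower, so the ratio is no separate check.

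The other members of this group were near the limit of detection. Psmb8 had 0 to 3 counts per library and Psmb9 had 1 to 7. Over both libraries, Psmb8 had 4 counts at 0 nM and 3 at 100 nM, a ratio of 0.738 per library size with an exact 95% interval from 0.108 to 4.37 for counting error only. Psmb9 had 6 and 11 counts, a ratio of 1.81 with an interval from 0.612 to 5.94. A change in either was not detectable at this depth. Psmb11, known as the thymus-specific beta subunit, had 4 counts at 0 nM and 20 at 100 nM, a ratio of 4.92 with an interval from 1.65 to 19.8, and 14 of the 20 counts came from 1 library. In a fit of all genes with at least 1 count its adjusted p was 0.0948 at 100 nM and 0.0207 for a trend over dose order (edgeR).

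Psma8, known as the germ-cell paralog of the alpha subunit Psma7, was the fourth member past 1.5-fold. Its level was 11.2 and 9.8 RPKM at 0 nM, 10.0 and 9.43 at 0.3 nM, 8.85 and 10.2 at 1 nM, 8.99 and 8.72 at 3 nM. The values were 8.3 and 10.51 with 10 nM and 7.82 and 6.08 with 100 nM. The 100 nM libraries were the lowest, those of 3 nM lay below those of 0 and 0.3 nM, and those of 1 and 10 nM overlapped the 0 nM libraries. The log2 fold change of Psma8 at 100 nM was -0.59 (SE 0.18, adjusted p = 0.0181, edgeR), a 1.51-fold fall. The call was lost with DESeq2 (adjusted p = 0.0847), without replicate 1 of 0 nM (adjusted p = 0.136, edgeR) and without replicate 2 of 100 nM (adjusted p = 0.209, edgeR). Psma8 per 100 RPKM of Psma7 stood at 15.05 and 11.997 at 0 nM and at 10.2 and 7.67 at 100 nM, which is no separate check either.

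The constitutive core, base and lid comprised 31 members, all of which were tested. At 0 nM their levels ran from 62.1 RPKM (Psmd14) to 189.6 RPKM (Psmd4), with a median of 99.0 RPKM, and the lowest of them stood above 90.2% of the tested genes. From 0 to 100 nM their log2 fold changes ran from -0.28 to 0.23 with a median of -0.034, and 21 of the 31 were below 0. All 31 had a 95% confidence interval inside 1.5-fold in either direction. Of all tested genes, 53.6% had such an interval. These subunits are deeply sequenced, with a median standard error of 0.0756 against 0.141 over all tested genes. Psma3, Psma4, Psma6, Psmb5 and Psmd1 overlap another gene of the table, and pairs in the overlap could not be assigned to either.

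The mean over the 7 alpha subunits without Psma8 was 101.1 ± 1.84 RPKM without dTAG13 and 101.0 ± 0.216 RPKM at the top dose (SD, n = 2 each). The mean over the 7 beta ring subunits was 116.1 ± 3.17 and 116.0 ± 1.78 RPKM, that over the 9 base subunits was 108 ± 1.58 and 105 ± 0.27 RPKM, and that over the 8 lid subunits was 90.3 ± 0.449 and 85.7 ± 2.59 RPKM. The alpha and beta means of the 2 groups differed by less than the SD of the 0 nM libraries. For the base and for the lid, both 100 nM libraries lay below both 0 nM libraries. Singly, 31.2% of all tested genes showed such a separation, and no share was computed for group means. Over the same doses, the mean of Psme1 and Psme2 went from 41.5 ± 3.2 to 24.7 ± 0.341 RPKM.

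**Figure D3:**
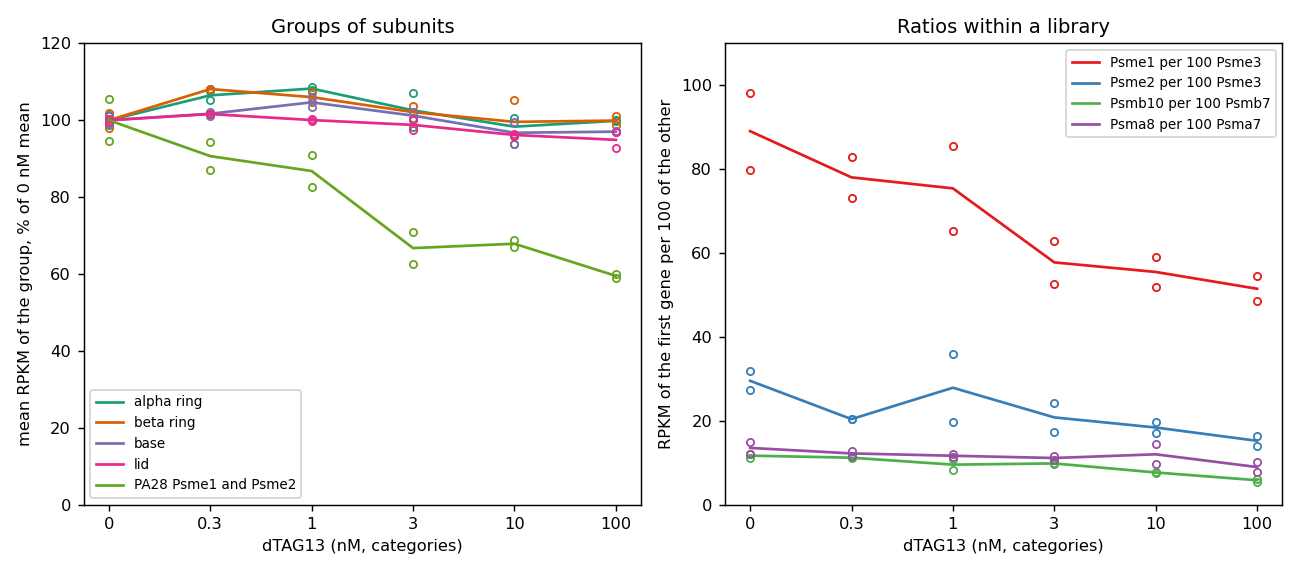
Left, mean RPKM of each group of subunits in each library, in percent of its 0 nM mean. Right, RPKM of Psme1 and Psme2 per 100 RPKM of Psme3, of Psmb10 per 100 of Psmb7 and of Psma8 per 100 of Psma7 in each library. Circles are libraries, lines join the means of 2 libraries, and doses (nM) are categories. The alpha ring, beta ring, base and lid libraries of 100 nM stand between 92.9% and 101.0%, and the Psme1 and Psme2 mean at 58.9% and 60.1%.

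The catalytic subunits showed no called change at any dose. Psmb5, the chymotrypsin-like site, had 77.5 and 79.0 RPKM at 0 nM and 73.6 and 75.3 RPKM at 100 nM, a log2 change of -0.07 (adjusted p = 0.695, edgeR). Psmb6, the caspase-like site, had 154 and 159.6 RPKM at 0 nM and 159 and 163 RPKM at 100 nM, a log2 change of 0.04 (adjusted p = 0.77, edgeR). Psmb6 stood higher, at 184 RPKM, in both libraries of 0.3 nM, where its unadjusted p was under 0.05 and its adjusted p was not. Among the ubiquitin-handling subunits, the deubiquitinase Psmd14 had 60.6 and 63.6 RPKM in the 0 nM libraries and 60.8 and 56.6 RPKM in those of 100 nM, a log2 change of -0.08 (adjusted p = 0.579, edgeR). The ubiquitin receptor Psmd4 had 189 and 190.4 RPKM and 191 and 182 RPKM, a log2 change of -0.02 (adjusted p = 0.858, edgeR). For Psmb6, Psmd4 and Psmd14 the libraries of the groups overlapped, and for Psmb5 those of 100 nM lay below both of 0 nM.

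The members of the constitutive particle that were called at 100 nM were Psmb2 and Psmd8. Psmb2, a beta ring subunit without a proteolytic site, had 87.4 and 103 RPKM at 0 nM and 77.4 and 79.7 RPKM at 100 nM, which is a log2 change of -0.28 (SE 0.099, adjusted p = 0.0424, edgeR). This call was lost in 8 of 21 alternatives, including DESeq2 (adjusted p = 0.123), the replicate block (adjusted p = 0.0504, edgeR), and leaving out replicate 2 of 0 nM or either 100 nM library (adjusted p = 0.427, 0.192 and 0.122, edgeR). Psmd8, a lid subunit, had 119.5 and 128 RPKM at 0 nM and 115 and 96.4 RPKM at 100 nM, which is a log2 change of -0.23 (SE 0.0753, adjusted p = 0.027, edgeR). It was not called by DESeq2, without normalization factors, without replicate 2 of 0 nM (adjusted p = 0.215, edgeR) or without replicate 2 of 100 nM (adjusted p = 0.425, edgeR). Psmb3, a beta ring subunit, was the constitutive member with the largest positive value at 100 nM, from 124.7 and 128 RPKM to 158 and 140 RPKM (log2 fold change 0.23, adjusted p = 0.0816, edgeR).

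Among the 8 assembly chaperones and PI31, Psmd5 fell at 100 nM and Psmd9 rose at 10 nM. Psmd5, a chaperone of base assembly, had 54.9 and 60.9 RPKM at 0 nM and 48.7 and 41.7 RPKM at 100 nM, which is a log2 change of -0.36 (SE 0.0904, adjusted p = 0.00463, edgeR). It was not called without normalization factors, without replicate 2 of 0 nM (adjusted p = 0.0929, edgeR) or without replicate 2 of 100 nM (adjusted p = 0.133, edgeR). Psmd9, another chaperone of the base, had 9.21 and 10.1 RPKM at 0 nM, 12.5 and 13.8 RPKM at 10 nM and 11.8 and 12.1 RPKM at 100 nM. The log2 change of Psmd9 was 0.44 at the dose of 10 nM (SE 0.123, adjusted p = 0.0126, edgeR) and 0.31 at 100 nM (adjusted p = 0.0754, edgeR). The call at 10 nM was lost with DESeq2, without replicate 1 of 0 nM (adjusted p = 0.124, edgeR) and without replicate 2 of 10 nM (adjusted p = 0.108, edgeR). The other 6 of this group, Psmd10 (gankyrin), the inhibitor Psmf1 (PI31) and Psmg1 to Psmg4, were not called at any dose, with values from -0.40 to 0.28 at 100 nM. As a group, the 8 genes of assembly chaperones and PI31 were less deeply sequenced, with a median mean count of 155.

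Across doses, the number of called members rose with the number of called genes. At 0.3 nM no member was called, against 0.0703% of all genes, and 2 members had an unadjusted p under 0.05. At 1 nM no member was called, against 2.29% of all genes, and 3 members had an unadjusted p under 0.05. The likelihood ratio test and DESeq2 also called none at these 2 doses. At 3 nM Psme1 was lower, 2.22% of the members, against 5.25% of all genes, and no member was higher, against 4.15%. Psme1 was also past 1.5-fold at 3 nM, as were 2.38% of all genes. At 10 nM Psme1 and Psmb10 were lower, 4.44% of the members, against 10.1% of all genes, and Psmd9 was higher, 2.22% of the members, against 7.87%. Only Psmb10 was past 1.5-fold at 10 nM (2.22%), against 4.92% of all genes. These comparisons share the 0 nM libraries.

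**Figure D4:**
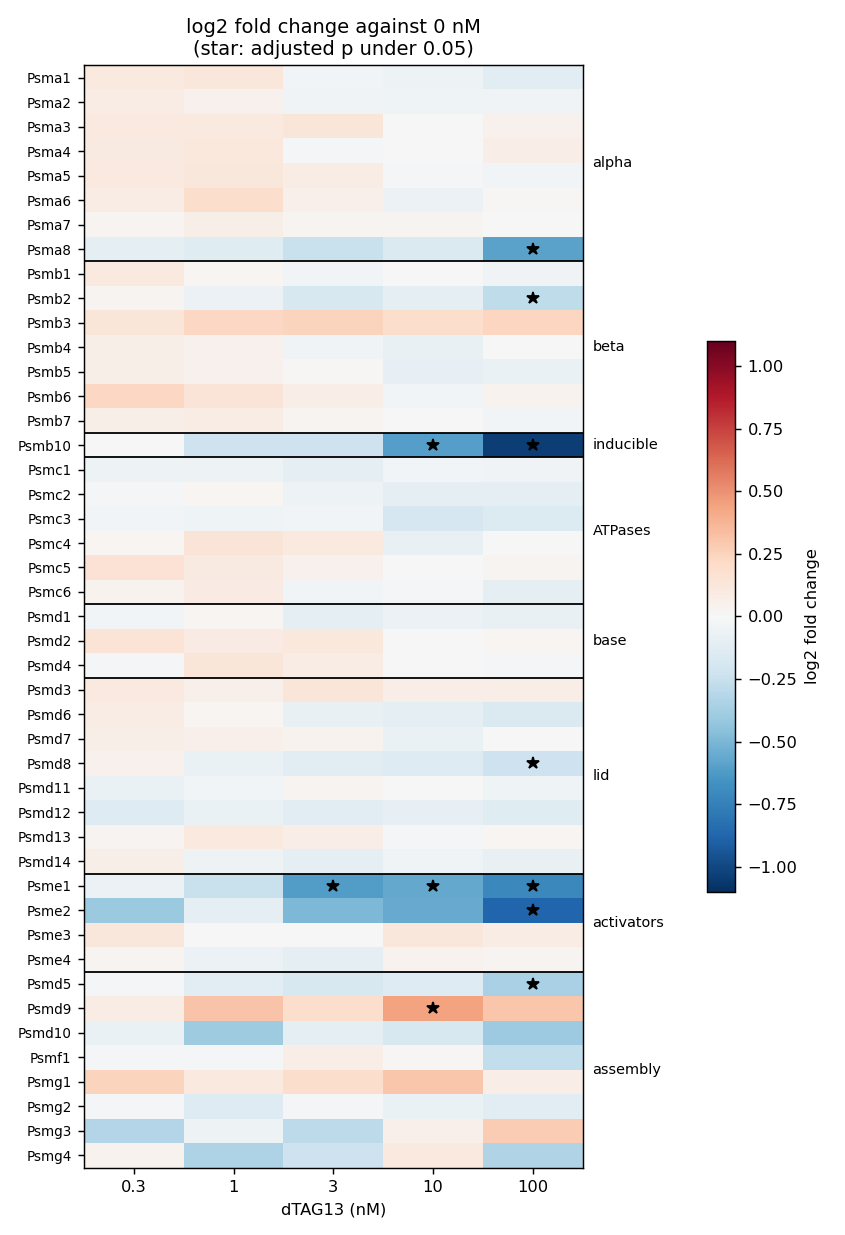
Log2 fold change of the 45 tested members at each dTAG13 dose (nM) against 0 nM, grouped by role. Blue is lower, red is higher, and stars mark an adjusted p under 0.05. Stars stand at 3, 10 and 100 nM, with Psme1 starred at all 3 of these doses and Psmb10 at 10 and 100 nM, and the base rows carry no star.

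A test of any difference among the 6 groups called 4 members (8.89%), namely Psme1, Psmb10, Psme2 and Psmd5, against 21.4% of all genes. Psmd5 lost this call in 9 of 20 alternatives and Psme2 in 4. A trend over the order of the doses was called for 9 members. It was downward for 8 (17.8%), against 15.7% of all genes, and upward for Psmd9 (2.22%), against 13.6%. The downward members were Psme1 (-0.15 log2 per dose step, adjusted p = 3.02e-05, edgeR), Psmb10 (-0.19, adjusted p = 0.000111, edgeR), Psme2 (-0.15, adjusted p = 0.00454, edgeR), Psmd5, Psmd8, Psmb2, Psmd6 and Psma8, of which the last 5 had slopes between -0.09 and -0.04. Psmd6, a lid subunit, was called only in this test, with 81.2 and 79.9 RPKM at 0 nM and 71.4 and 72.8 RPKM at 100 nM. The sample labels number the 0.3 and 3 nM libraries in a series of their own, apart from the other 8, and this numbering cannot be told apart from those doses. With the other 8 libraries alone, 5 members kept the downward trend, namely Psme1, Psmb10, Psme2, Psmd5 and Psmd8. The trends of Psma8, Psmb2, Psmd6 and Psmd9 were each lost in 4 or 5 of 23 alternatives. Between 3 and 0.3 nM, which share a series of numbers, Psme1 was lower (log2 fold change -0.55, SE 0.14, adjusted p = 0.0182, edgeR), 2.22% of the members against 2.88% of all genes. That call was lost without either 0.3 nM library (adjusted p = 0.0584 and 0.155, edgeR) or without replicate 2 of 3 nM (adjusted p = 0.249, edgeR).

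By the libraries themselves, both 100 nM libraries lay below both 0 nM libraries for 16 of the 45 members (35.6%), against 31.2% of all genes. They lay above both for 9 members (20%), against 30.5% of all genes. The remaining 20 overlapped.

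Other genes of the pathway were described from 3 lists, of proteasome partners outside the symbol rule, the NRF1 route, and ubiquitin with its E1 enzymes and shuttles. At 100 nM, 1 of 12 tested partners, 1 of 6 genes of the NRF1 route and 2 of 14 ubiquitin genes were called, against 13.3% of all genes lower and 10.1% higher. The partner was Ipo9, an importin known to carry proteasomes into the nucleus, which went from 37.4 and 34.8 RPKM to 31.2 and 31.9 RPKM (log2 fold change -0.19, adjusted p = 0.0321, edgeR) and was not called by DESeq2 or the likelihood ratio test, nor without replicate 1 of 0 nM or either 100 nM library (adjusted p = 0.252, 0.163 and 0.0997, edgeR). The ubiquitin receptor Adrm1 changed by 0.15 (adjusted p = 0.239, edgeR) and the core assembly factor Pomp by 0.12 (adjusted p = 0.626, edgeR) on the log2 scale. In the NRF1 route, Ngly1, the deglycosylase that processes NRF1, went from 2.31 and 2.19 RPKM to 3.42 and 3.72 RPKM (log2 fold change 0.67, adjusted p = 0.0499, edgeR), and leaving out any 1 of 8 libraries ended the call (adjusted p up to 0.201, edgeR). At 3 nM Ngly1 was also higher (log2 fold change 0.80, adjusted p = 0.0385, edgeR). Nfe2l1, the gene of NRF1, had 37.8 and 35.6 RPKM at 0 nM and 36.3 and 35.4 RPKM at 100 nM (log2 fold change -0.03, adjusted p = 0.776, edgeR). Both called ubiquitin genes encode shuttle factors of the ubiquilin family. Ubqln4 rose from 52.4 and 52.9 RPKM to 72.7 and 65.4 RPKM (log2 fold change 0.39, adjusted p = 5.53e-05, edgeR). Ubqln1 fell from 55.3 and 58.0 RPKM to 46.1 and 48.1 RPKM (log2 fold change -0.27, adjusted p = 0.00511, edgeR), a call lost without replicate 2 of 0 nM (adjusted p = 0.0711, edgeR) or replicate 1 of 100 nM (adjusted p = 0.0721, edgeR). At lower doses, the partner AI314180 was higher at 3 nM (log2 fold change 0.33, adjusted p = 0.0137, edgeR) and 10 nM (0.46, adjusted p = 0.000317, edgeR) and was not called at 100 nM (0.13, adjusted p = 0.314, edgeR). Syvn1, an E3 ligase of the endoplasmic reticulum, was lower at 10 nM (-0.48, adjusted p = 0.0091, edgeR) and was not called at 100 nM (-0.12, adjusted p = 0.542, edgeR). Ubqln4 was higher at 10 nM too, and no listed gene was called at 0.3 or 1 nM. AI314180 and Syvn1 were chosen after their values were seen. The median log2 fold changes of the 3 lists at 100 nM were -0.05, -0.03 and 0.02, beside 0 over all tested genes.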

How the data were processed

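RNA-seq counts of 12 mES cell libraries were used, 2 for each of 6 dTAG13 doses. The authors trimmed reads with Trim Galore, aligned them to mm10 with HISAT2 and counted read pairs on exons by gene symbol with featureCounts 2.0.1, with both ends aligned, without strand and without multi-mapped pairs. The deposited counts were neither normalized nor filtered. Gene lengths came with them. Because strand was not used, reads of the 4 bases that Psme1 shares with the antisense gene Emc9 could not be assigned.

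Tests ran in R 4.3.3 (DESeq2 1.42.0, edgeR 4.0.16, limma 3.58.1). From TMM factors and gene lengths RPKM was computed, and 11378 genes averaging 1 RPKM or more over the 12 libraries were tested. TMM factors were computed again on these genes. All 6 groups were fitted together and compared by edgeR's quasi-likelihood test, with calls at a Benjamini-Hochberg adjusted p under 0.05. The likelihood ratio test, named in the study's methods, was an alternative. The steps were tested on simulated data drawn with the same spread for all genes and groups, which is no check of unequal spread between groups.

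Replicate numbers are shared by the groups in the labels, but the deviations of replicate 1 correlated at -0.095 to 0.093 over the 15 pairs of groups, so the numbers were not taken to pair the libraries. Named genes were members with an adjusted p under 0.05 at 100 nM (12 at most) or in another test (6 at most), plus Psmb5 to Psmb10, Psmd4, Psmd14 and Psme1 to Psme4. Outside the members they were listed pathway genes called at 100 nM (6 at most), plus Nfe2l1, Adrm1 and Pomp. Other genes named were chosen after their values were seen. The members, lists and tests were chosen with earlier results of these data known. Intervals on counts cover counting error only.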

Additional observations from a re-analysis of the deposited data

How the results depend on the processing

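The counts of called members at 0.3 and 1 nM were 0 under every alternative run. At 3 nM the count was 1, and 0 to 2 when each library was left out in turn. At 10 nM it was 3, against 1 with DESeq2, 5 without the RPKM filter, 5 with TMM factors computed on all genes before the filter (an alternative chosen after seeing the data), 1 with a 1.5-fold minimum, and 2 to 4 with a library left out. At 100 nM it was 7, against 4 with DESeq2, 4 without factors, 4 with a 1.5-fold minimum and 3 to 8 with a library left out, the lowest without replicate 2 of 100 nM. For any dose it was 4, against 2 with DESeq2, 13 without the filter, 11 with factors computed before the filter and 2 to 6 with a library left out. For the trend it was 9, against 5 without factors, 14 with factors computed before the filter, 5 with the libraries of 0, 1, 10 and 100 nM alone and 6 to 10 with a library left out. Between 3 and 0.3 nM it was 1, against 0 without factors and 0 to 1 with a library left out. The median of the members at 100 nM was -0.036, against 0.0099 without factors, -0.118 without the filter and -0.118 with factors computed before the filter, where the median of all genes was -0.081. It ran from -0.067 to -0.029 with a library left out. Under the replicate block, 6 members were called at 100 nM, the exception being Psmb2, Ngly1 had an adjusted p of 0.0502 (edgeR), and the counts of the other comparisons stayed as they were. Of 506 repeats of the 23 named genes' changes at 100 nM, none reversed a called direction, 47 lost a call, 2 gained one (Psmd6 without the filter and with factors computed before it), and 12 changed sign without a call in either fit.

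With 43 to 143 counts per library, Psme2, Psmb10 and Psma8 had standard errors of 0.18 to 0.211 at 100 nM, Psmd10, with 37 to 54, had one of 0.247, and Psmb8, Psmb9 and Psmb11 lay at or near the floor. With 2 libraries per group, the spread was estimated over all 6 groups. Leaving out a library leaves 1 in its group, which was then assumed to vary like the others.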

Other observations

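Genes near Psme1, Psme2, Psmb10, Psma8 and Psmd5 were examined, and those near Psmb2 and Psmd8 were not. Within 30 kb of Psme1 or Psme2, Irf9, a component of the interferon-activated factor ISGF3, rose from 6.26 and 5.81 RPKM at 0 nM to 13.1 and 12.5 RPKM at 100 nM (log2 fold change 1.09, adjusted p = 9.2e-07, edgeR). Pck2, the mitochondrial phosphoenolpyruvate carboxykinase, fell from 6.92 and 6.08 RPKM to 1.9 and 1.3 RPKM (log2 fold change -2.02, adjusted p = 1.02e-07, edgeR), and Dcaf11 fell by 0.33 on the log2 scale (adjusted p = 0.0439, edgeR). Rnf31 and Rec8 were not called, with log2 fold changes of -0.03 (adjusted p = 0.899, edgeR) and 0.0022 (adjusted p = 0.998, edgeR). Emc9, which overlaps the end of Psme1 by 4 bases, had 4 to 16 counts per library and a log2 fold change of 1.36 that was not called (adjusted p = 0.0704, edgeR). Near Psmb10, the nearest gene, Lcat, was under the RPKM filter, with 1 and 5 counts in the 0 nM libraries and 17 and 15 in those of 100 nM (log2 fold change 2.27, adjusted p = 0.00882, in the edgeR fit without the filter). Slc12a4 rose by 0.42 (adjusted p = 0.00431, edgeR) and Pskh1 changed by 0.01 (adjusted p = 0.984, edgeR) on the log2 scale. Near Psma8, Ss18, a subunit of the mSWI/SNF complexes, rose by 0.37 (adjusted p = 0.000187, edgeR), and Taf4b had a log2 change of 0.33 (adjusted p = 0.0593, edgeR). Near Psmd5, neither tested neighbor was called, with -0.01 for Fbxw2 (adjusted p = 0.976, edgeR) and -0.38 for Phf19 (adjusted p = 0.446, edgeR). These neighbors were chosen by distance, and those named were chosen after their values were seen.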
